A study of Bos taurus with 16 samples.

Results

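The 200 genes described here are the well-expressed genes whose transcript level in cattle blood differed most from animal to animal. They were chosen by a rule on the counts alone. Levels are CPM, the count of a gene divided by the library's total over genes and scaled to 1000000. Of 24616 identifiers, 8345 had a mean of at least 10 CPM, the 100 highest of these were left out, and 8245 candidates remained. The 200 with the largest standard deviation (SD) of log2(CPM + 1) over 15 libraries are called members below. The rule left the library of high-yield animal 4 out of the choice. That library stood apart: only 12197 genes were detected in it, and 15494 to 16217 in each of the others.

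The study profiled whole blood of 16 dairy cattle by RNA sequencing, with 1 library per animal. The sample labels sort the animals by milk protein yield, 8 high and 8 low, while the design text names the groups by an abbreviated trait, RFI. The comparisons below use 7 high-yield and 8 low-yield animals. The labels used here give no breed, age, lactation stage, sampling date or blood cell count.

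Blood RNA comes from neutrophils, monocytes, lymphocytes, platelets and red cells, and each of these carries transcripts of its own. When the share of 1 cell type differs between animals, its transcripts are known to vary together in whole-blood RNA. In such bulk samples, fewer cells of a type and less RNA per cell cannot be told apart. The files do not pair the identifiers with gene names, and 0 of the 24616 identifiers matched the name table at hand. Roles of the members are therefore not given, and the tissue label could not be checked against marker genes. Identifiers are printed for 4 members, and other members are named by their rank in SD, from 1 for the most variable.

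The totals of the 15 libraries ran from 23727368 to 39793845 counts. The least expressed member had a mean of 291 counts per library, at which counting error alone gives an SD of 0.085 on the log2 scale. No pair of the 16 libraries agreed within sampling noise (lowest chi-square per degree of freedom 30.0 in 120 pairs), so all were taken as separate samples. The 15 libraries fell into 2 sets by the share of alignments that the files tally as not unique, 8 libraries at 7.83% to 8.81% and 7 at 4.0% to 4.81%. Each set held animals of both yield groups, 4 high and 4 low in the former and 3 high and 4 low in the latter.

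The members' SD ran from 0.77 to 3.28 log2 units, with a median of 0.92, against a median of 0.30 over all candidates. These values chose the members and are a description only. At the edge of the choice the SD was 0.774 and 0.771 in the last 2 members and 0.771 and 0.770 in the next 2 candidates, so the edge parts no distinct class of genes. An SD above 1 was found in 78 members and above 2 in 9. The highest library stood a median of 10.9-fold above the lowest in the members, against 2.15-fold over all candidates. Mean levels of members ran from 10 to 984 CPM with a median of 29.1 CPM, somewhat lower than the 44.9 CPM of all candidates. Together the members took 1.31% of the counts in high-yield animal 7, the lowest share, and 2.08% in low-yield animal 7, the highest.

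Among the 10 members with the largest SD, 7 were either high or low in an animal, with no level in between. In 8 members the 15 animals parted into 2 levels, with an empty gap of at least 2 log2 units and at least 3 animals on each side. The other 8045 candidates held 0 such genes, which follows from their smaller SD. The 8 members were ranks 1 to 4, 6 to 8 and 14.

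The member of rank 1 stood at 0.970 to 6.88 CPM (median 1.88) in 8 animals and at 223 to 388 CPM (median 281) in 7 animals. The lowest of the upper animals was 32.4-fold above the highest of the lower ones. High-yield animals 1, 2, 5 and 6 and low-yield animals 2, 3 and 6 were at the upper level. Both yield groups thus held both levels.

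Rank 2 stood at 0.539 to 2.84 CPM in 7 animals and at 40.6 to 278 CPM in 8, of which 4 were high-yield and 4 low-yield. Rank 3 stood at 0.117 to 1.97 CPM in 5 animals and at 26.2 to 146 CPM in 10. Its upper level held 4 of 7 high-yield and 6 of 8 low-yield animals. For these members the lower level was close to absence: the lowest library had 17 counts for rank 2 and 4 counts for rank 3.

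Rank 4 was expressed in every animal, at 14.9 to 31.9 CPM in 8 and at 175 to 1021 CPM in 7. Its upper level held 3 high-yield and 4 low-yield animals. Rank 6 stood at 0.184 to 0.647 CPM in 6 animals and at 10.5 to 72.9 CPM in 9, of which 3 were high-yield and 6 low-yield. This was the most uneven division between the yield groups among the 8, and its log2 fold change, high minus low, was -2.22 (SE 1.06, adjusted p = 0.854 in edgeR's quasi-likelihood test).

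For ranks 7, 8 and 14 the upper level began at 22.5, 97.9 and 21.4 CPM and the lower level ended at 4.74, 10.1 and 3.92 CPM. It held 3 high-yield and 2 low-yield animals for rank 7, 3 and 3 for rank 8, and 5 and 6 for rank 14. The 8 members divided the 15 animals in 8 different ways, so no 2 of them had exactly the same animals at the upper level. Ranks 1 and 2 were nearly opposite, however. Apart from 2 animals, those at the upper level of rank 1 were at the lower level of rank 2, and the reverse. The 2 exceptions were high-yield animal 6 (281 and 56.5 CPM) and low-yield animal 4 (1.73 and 2.19 CPM). High-yield animal 4, which the choice did not use, fell within or beyond 1 of the 2 levels in each of the 8 and never in the gap. It was at the upper level for ranks 1, 3, 4 and 6 and at the lower level for ranks 2, 7, 8 and 14. For rank 14 it had 0 counts, a level below all others, in a library in which 8.00% of members and 1.06% of the other candidates had no count.

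**Figure D1:**
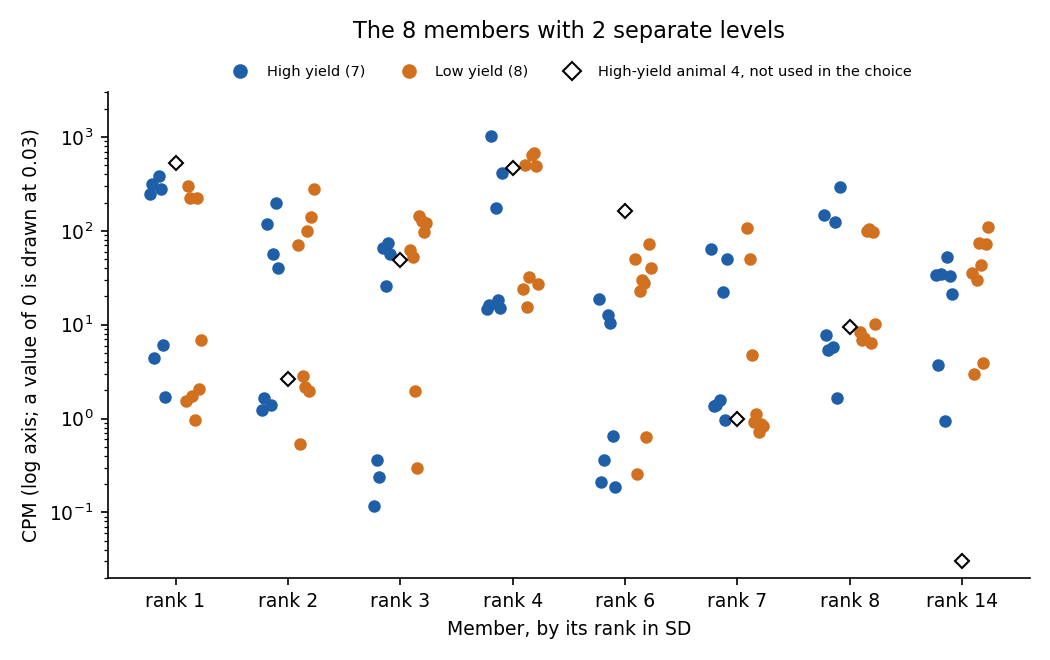
CPM (vertical log axis) of the 8 members with 2 separate levels, by rank in SD, with 1 point per animal for 7 high-yield (blue) and 8 low-yield (orange) animals and an open diamond for high-yield animal 4. For rank 1, 7 animals lie at 223 to 388 CPM and 8 at 0.970 to 6.88 CPM, and both colours appear at both levels of every member.

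Ranks 5, 9 and 10 spread without a gap of that kind. Rank 5 had a median of 0.921 CPM and a highest value of 85.7 CPM in high-yield animals, and a median of 3.77 CPM and a highest value of 50.03 CPM in low-yield animals. Rank 9 ran from 0.060 to 28.7 CPM in high-yield and from 0.037 to 57.7 CPM in low-yield animals. Rank 10 was the most abundant of the 200, at a mean of 984 CPM. It ran from 39.6 to 3015 CPM (median 351) in high-yield and from 91.1 to 4581 CPM (median 616) in low-yield animals. In each of these 3 members the ranges of the yield groups overlapped over most of their length. Rank 12 had a wide gap but too few animals above it to be counted among the 8: it was high in 2 animals only, high-yield animal 3 at 51.9 CPM and low-yield animal 1 at 88.2 CPM, and at 0.411 to 2.95 CPM in the other 13.

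A further 15 members owed over 50% of their sum of squares to a single animal, 7.50% of members against 4.16% of the other candidates. The animal lay above the others in 7 of them and below in 8. Low-yield animal 2 was this animal in 6 members. In 1 of these, of rank 106, it had 339 CPM, against 23.1 to 78.0 CPM in the other 14 animals. In another, of rank 51, it had 48.8 CPM, against 292 to 1165 CPM. Low-yield animal 1 had 0.807 CPM of the member of rank 57, for which the other 14 animals had 9.20 to 39.7 CPM. High-yield animal 3 had 0.916 CPM of the member of rank 55, against 8.72 to 44.7 CPM in the others. High-yield animal 4, left out of these counts, had 306 CPM of rank 106 and 1.31 CPM of rank 57, levels near that of the single animal. For ranks 51 and 55 it had 349 and 15.4 CPM, within the range of the others.

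Most members varied together with others. Clustering by Pearson correlation over the 15 libraries (average linkage, joined at a mean r of at least 0.5) put 142 of the 200 into 6 sets of 10 or more. The sets held 56, 28, 25, 12, 11 and 10 members, and the mean r within a set was 0.76, 0.74, 0.64, 0.59, 0.70 and 0.70. Of the 20 members with the largest SD, 15 were in no set, and the 8 members with 2 levels were all outside the sets. The median SD was 1.09 in the 58 members outside the sets and 0.86 in those within. Being highly variable did not go with closer co-variation than in other genes. The median absolute r between 2 members was 0.36, against 0.41 between 2 of the other candidates, and 15.1% and 16% of the pairs had an absolute r above 0.7.

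The level of a set in an animal is given as the mean, over its members, of the log2 difference from each member's mean over the 15 animals. Set 1, with 56 members, was lowest in high-yield animal 5 at -1.27 and highest in high-yield animal 7 at 1.31, a 5.99-fold range. Its levels fell on 2 sides. High-yield animals 3 and 7 and low-yield animals 1, 4, 5, 6 and 8 lay at 0.45 to 1.31, and 7 others at -1.27 to -0.63, with high-yield animal 6 between them at 0.02. The member closest to the mean of set 1, of rank 95, ran from 14.8 to 136 CPM (median 27.1) in high-yield and from 23.2 to 95.1 CPM (median 66.7) in low-yield animals.

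Sets 2 to 5 ran against set 1. Of the pairs between sets 1 and 2, 99.5% had a negative r (mean -0.58), and of those between sets 1 and 3, 100% (mean -0.66). With sets 4 and 5 it was 98.5% and 92.2%, at a mean r of -0.41 each. Set 2 had 28 and set 3 had 25 members. Set 2 was highest in high-yield animal 5 at 0.89 and lowest in low-yield animal 8 at -1.78, where 24 of its 28 members had their lowest level. Its member closest to the mean, of rank 192, ran from 19.2 to 102 CPM (median 55.0) in high-yield and from 12.9 to 66.8 CPM (median 30.7) in low-yield animals. Set 3 was highest in high-yield animal 5 at 1.32 and lowest in high-yield animal 3 at -1.27. Its member closest to the mean, of rank 40, ran from 8.20 CPM in high-yield animal 3 to 184 CPM in high-yield animal 5, a 22.5-fold range.

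The extreme animals of the smaller sets were in part those of the larger ones. Set 4, of 12 members, was highest in high-yield animal 5 at 0.93, as were sets 2 and 3, and lowest in high-yield animal 7 at -1.88, where 10 of the 12 had their lowest level, and the next lowest animal was at -0.80. Set 5, of 11 members, was highest in high-yield animal 6 at 1.49 and lowest, like set 2, in low-yield animal 8 at -1.39. Its most variable member, of rank 23, reached 132 CPM in high-yield animal 6 against a high-yield median of 11.3 CPM and a low-yield median of 6.23 CPM. Set 6, of 10 members with a median mean level of 157 CPM, was highest in low-yield animal 7 at 1.59 and lowest, like set 4, in high-yield animal 7 at -1.82, a 10.7-fold range. The member of rank 10 belonged to set 6.

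**Figure D2:**
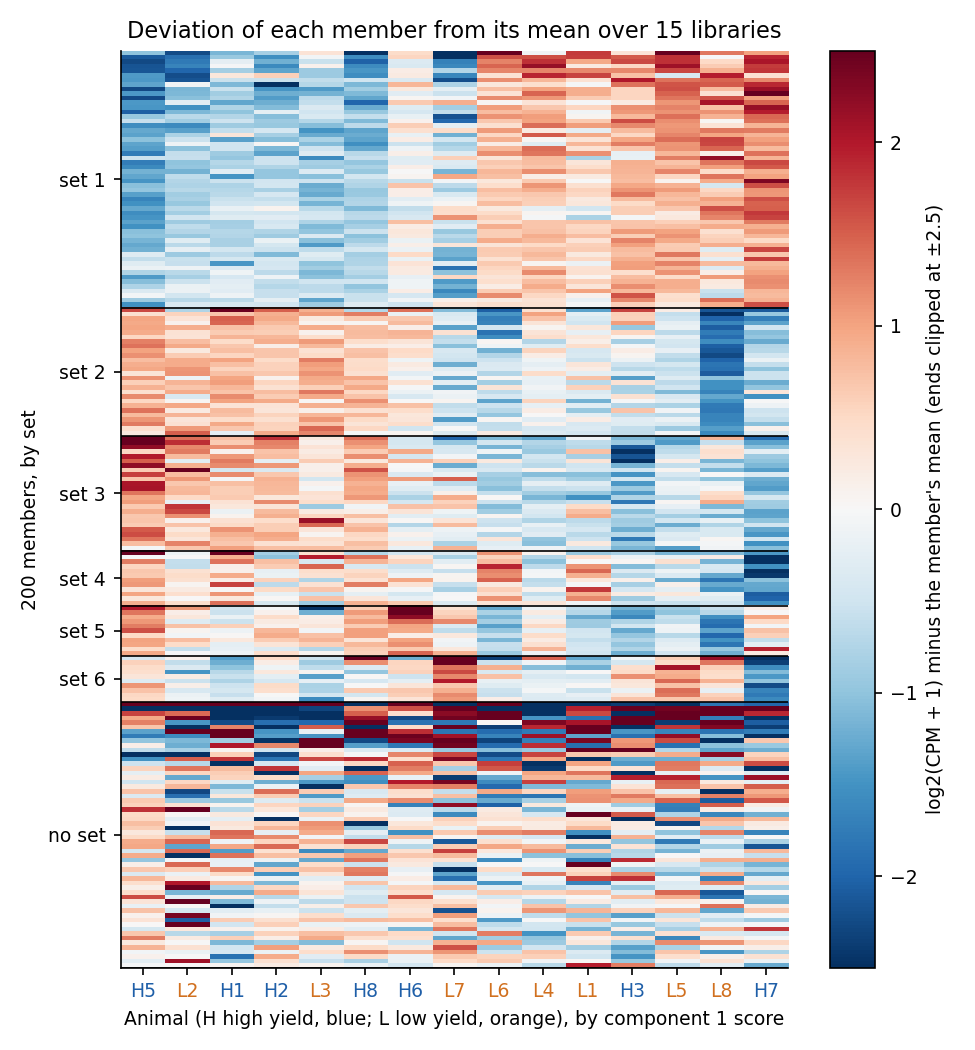
Difference of log2(CPM + 1) from the member's mean over 15 libraries (colour, red above and blue below) for the 200 members in rows, grouped by co-varying set, and 15 animals in columns, ordered by component 1 score. Set 1 is blue on the left and red on the right and sets 2 and 3 show the reverse, while the 58 members in no set show no common order and the axis has high-yield animals at both ends.

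The first principal component of the members carried 35.6% of their variance and the second 12.4%. On the first, 87 members had a positive and 113 a negative weight. High-yield animals lay at both of its ends: animal 5 had the lowest score at -14.6 and animal 7 the highest at 14.0. From the low end the order went on with low-yield animal 2 (-11.1), high-yield animals 1 (-9.76) and 2 (-9.37), low-yield animal 3 (-8.18) and high-yield animal 8 (-7.99). From the high end it was low-yield animals 8 (11.8) and 5 (10.7) and high-yield animal 3 (9.61). The mean score was -2.80 ± 10.8 in high-yield (SD, n = 7) and 2.45 ± 8.32 in low-yield animals (SD, n = 8). The difference between these means was smaller than the spread within either group, and the range of the low-yield animals lay within that of the high-yield animals.

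The other 8045 candidates ordered the animals much alike. Their first component carried 43.8% of the variance, with high-yield animal 5 at the low end and low-yield animal 8 and high-yield animal 7 at the high end. On the second component of the members, low-yield animal 7 had the lowest score at -14.1, and the other 14 animals lay between -7.69 and 6.34. High-yield animal 7 had the highest or lowest level of the 15 animals in 63 members, high-yield animal 5 in 59 and low-yield animal 8 in 57. The 5 animals with the most such ends, which also included high-yield animal 3 with 34 and low-yield animal 7 with 33, held 61.5% of them. High-yield animal 6 held 6, the fewest, and low-yield animal 4 held 7.

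**Figure D3:**
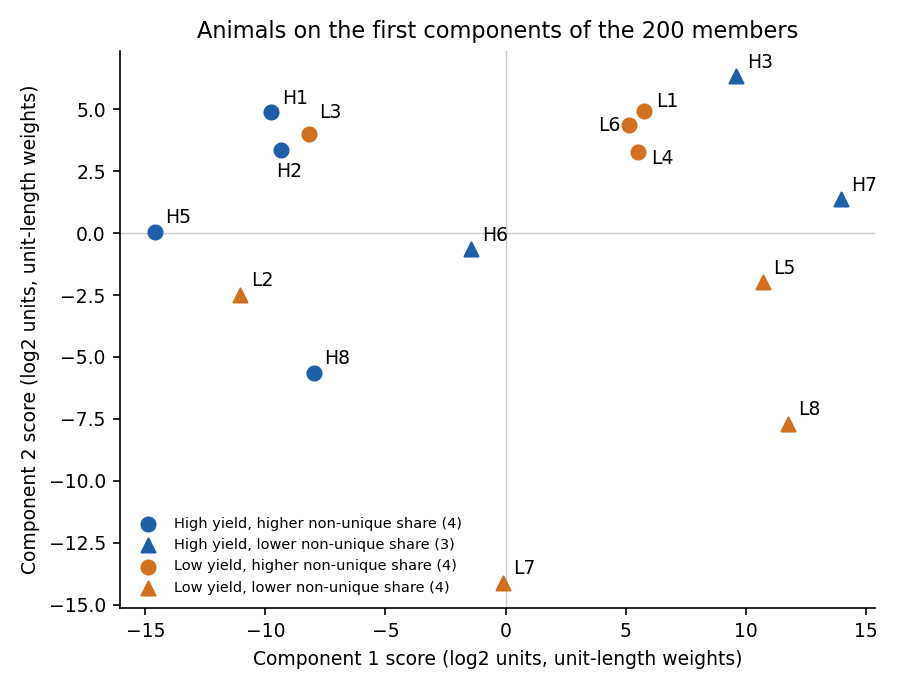
Scores of 15 animals on the first (horizontal) and second (vertical) principal component of the 200 members, in log2 units, with colour for yield group and shape for the share of non-unique alignments. High-yield animals 5 and 7 lie at opposite ends of the first component, at -14.6 and 14.0, and low-yield animal 7 lies apart on the second at -14.1.

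Across the members, the nearest animal by correlation of these deviations was of the same yield group for 7 of the 15 animals. It was of the same non-unique set for 10 of the 15. Across the other candidates the counts were 10 of the 15 for yield group and 12 of the 15 for non-unique set. The closest pair, high-yield animals 2 and 5, reached an r of 0.58 across members, and high-yield animal 1 and low-yield animal 3 reached 0.57. Genes are not independent replicates, so these values describe only these libraries.

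No member was called between the yield groups by edgeR's quasi-likelihood test at an adjusted p below 0.05 (0 of 200), and neither was any other gene (0% of 13264 tested, smallest adjusted p 0.154). All 200 members passed the filter on low counts. The smallest adjusted p of a member was 0.854. At an unadjusted p below 0.05 there were 24 members, 20 higher and 4 lower in high-yield animals. This is 12% of members, against 3.82% of all genes tested (2.15% higher and 1.67% lower). With high-yield animal 4 included there were 26, of which 21 were higher and 16 were shared with the 24, against 2.55% of all genes in either direction and 1.85% higher. The 3 genes that DESeq2 called (0.0159% of 18880) held 0 members, with 40 members at an unadjusted p below 0.05, against 3.94% of its genes. In limma voom with quality weights for the libraries 0 were called, and 110 members had an unadjusted p below 0.05, against 27.5%.

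The excess of members at a small p depended on the test. In an exact two-sided permutation test of each gene over all 6435 splits of the 15 animals, 10 members had an unadjusted p below 0.05, or 5.0%, against 3.79% of all genes. All 10 were among the 24 of edgeR. Of these, 9 were higher in high-yield animals, against 2.29% of all genes, and 1 was lower, against 1.5%. The edgeR test moderates each gene's spread towards that of other genes. The spread it used was below the member's own in 200 of the 200 members, with a median ratio of 0.79, and in 56.6% of all genes, with a median ratio of 0.97. Since the members were chosen for a large spread, the edgeR count is not independent of that choice.

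Measured without such moderation, the members followed yield about as closely as other genes. The yield groups accounted for a median of 5.0% of a member's sum of squares and 5.32% of another candidate's. This share was above 25% in 10 members (5.0%) and in 329 of the other candidates (4.09%). The median log2 fold change, high minus low, was -0.05 in the members and -0.02 in all genes tested, with 98 members above 0 and 102 below. The median size of the log2 fold change was 0.43 in the members at a median SE of 0.43, and 0.14 in all genes at 0.19. The groups did not overlap in 0 of the 200 members and in 0.0226% of all genes.

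ENSBTAG00000010828, of rank 116 and in set 5, had the smallest p of a member. It ran from 2.91 to 27.8 CPM (median 15.8) in 7 high-yield and from 2.80 to 8.85 CPM (median 6.48) in 8 low-yield animals. High-yield animal 3 was low, while 5 of the 7 high-yield animals lay above all low-yield animals. The log2 fold change was 1.31 (SE 0.37), a 2.49-fold difference, with an unadjusted p of 0.00236, an adjusted p of 0.854 in edgeR and an exact permutation p of 0.0227.

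ENSBTAG00000023907, of rank 175 and in set 2, ran from 18.5 to 71.1 CPM (median 37.1) in high-yield and from 7.14 to 31.7 CPM (median 22.0) in low-yield animals. Of the 7 high-yield animals used, animal 7 alone lay within the low-yield range, and the other 6 lay above it. High-yield animal 4, not among them, had 7.28 CPM, also within that range. The log2 fold change was 0.98 (SE 0.32, adjusted p = 0.854 in edgeR, exact permutation p = 0.0129), and 0.83 with high-yield animal 4 included.

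Among members with lower values in high-yield animals, ENSBTAG00000008471, of rank 197 and in no set, had the smallest p. It ran from 23.6 to 63.0 CPM (median 39.0) in high-yield and from 31.2 to 207 CPM (median 54.8) in low-yield animals. The groups overlapped, and 1 animal, low-yield animal 2, stood far above the rest. The log2 fold change was -0.95 (SE 0.35, adjusted p = 0.854 in edgeR, exact permutation p = 0.0348) and -0.48 without that animal (adjusted p = 0.626 in edgeR). Within each of these 2 fits the adjusted p was the same for every named member. Its fall therefore does not mark a stronger difference in this gene.

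ENSBTAG00000043570, of rank 150 and in set 6, ran from 130 to 323 CPM (median 193) in high-yield and from 179 to 1018 CPM (median 225) in low-yield animals. Low-yield animals 5, 7 and 8 lay above all high-yield animals, and the other 5 lay within their range. These 3 animals were all in the library set with the lower non-unique share. So were low-yield animal 2 and high-yield animal 7, the lowest of their yield groups. Between the library sets, higher minus lower share, the log2 fold change was -0.85 (unadjusted p = 0.0146 in edgeR, against 0.0191 for yield). The log2 fold change was -0.94 (SE 0.36, adjusted p = 0.854 in edgeR, exact permutation p = 0.0755). It was -0.26 with high-yield animal 4 included, which had 934 CPM, and -0.62 without low-yield animal 7. These 4 members were picked for their small p among 200, and their exact p-values carry no adjustment for that.

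**Figure D4:**
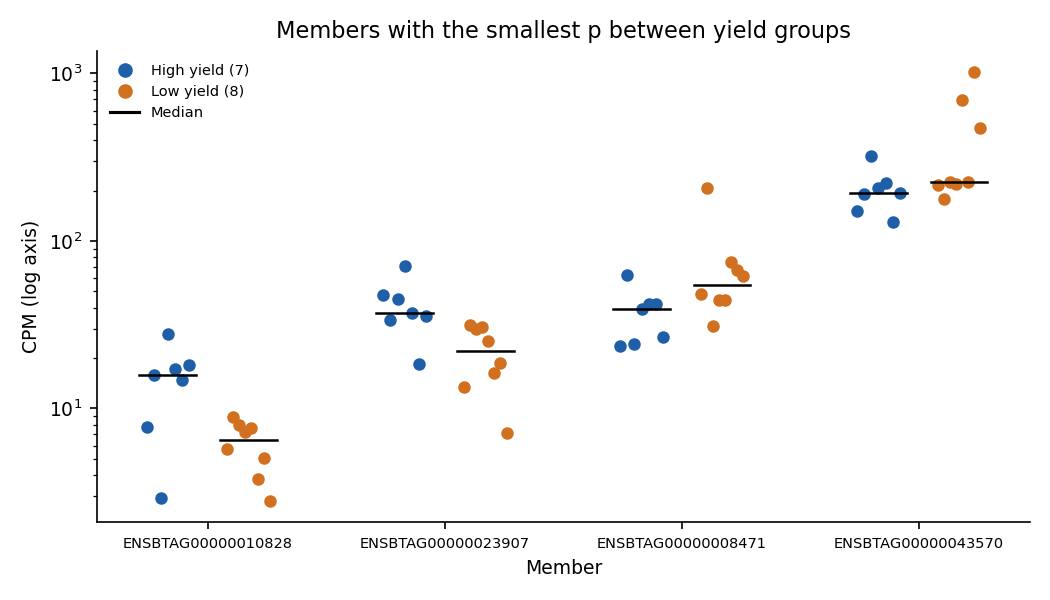
CPM (vertical log axis) of the 4 named members in 7 high-yield (blue) and 8 low-yield (orange) animals, 1 point per animal, with the median as a bar. The groups overlap in each member, and the low-yield median of ENSBTAG00000010828, 6.48 CPM, lies below 6 of the 7 high-yield animals.

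Of the 24 members at an unadjusted p below 0.05 in edgeR, 8 were in set 2 and 6 in set 5, all higher in high-yield animals. Set 3 held 3, sets 1, 4 and 6 held 1 each, and 4 were in no set. The level of set 5 was 0.42 ± 0.83 in high-yield (SD, n = 7) and -0.36 ± 0.61 in low-yield animals (SD, n = 8). In 5 of the 7 high-yield animals it lay above all low-yield animals, but high-yield animals 1 and 3 lay within their range. The level of set 2 was 0.33 ± 0.59 and -0.29 ± 0.80. The difference, high minus low, was 0.78 in set 5 and 0.62 in set 2, each above the SD of 1 group and below that of the other. With high-yield animal 4 included it was 0.75 and 0.39. Leaving out 1 animal in turn gave 0.60 to 1.02 and 0.41 to 0.80. The other 4 sets had differences of -0.38, 0.29, -0.03 and -0.37 (sets 1, 3, 4 and 6), smaller than the SD within either group. Sets were formed on these same animals, so no test is given for their levels.

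**Figure D5:**
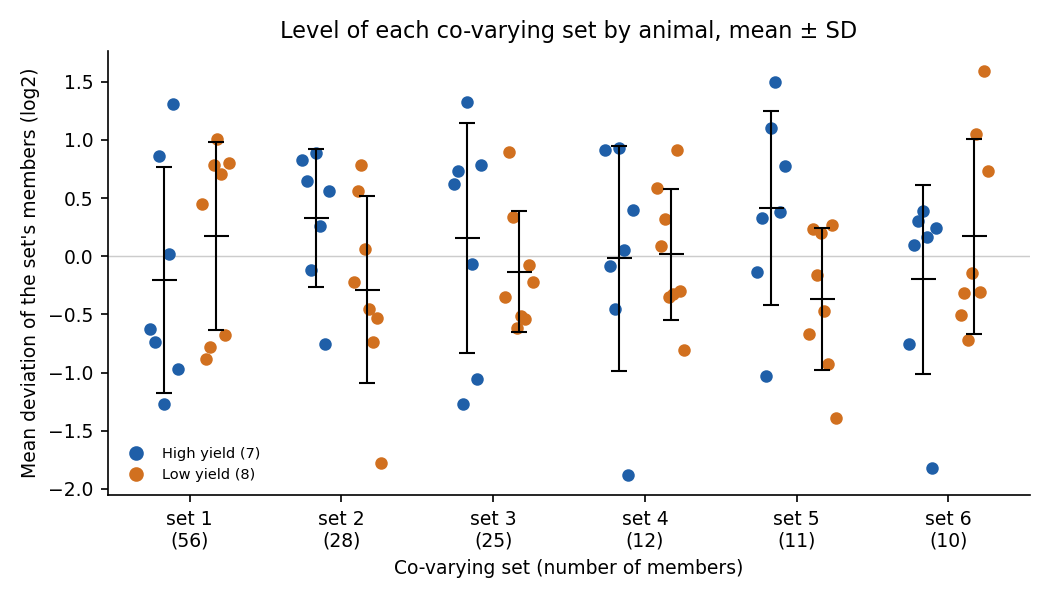
Level of the 6 co-varying sets (vertical axis, mean log2 difference of a set's members from their means) in 7 high-yield (blue) and 8 low-yield (orange) animals, with the group mean ± SD in black. In set 5 the means are 0.42 and -0.36, and in all 6 sets the points of both groups overlap.

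Between the 2 sets of libraries by non-unique share, 0 members were called at an adjusted p below 0.05 in edgeR with yield group as a term (0% of genes tested). At an unadjusted p below 0.05 there were 45 members, or 22.5%, against 16% of genes tested. Of these, 21 were higher in the libraries with the higher share, against 8.83%. Without low-yield animal 2 the test called 30 members, against 6.42% of all genes, with 86 members at an unadjusted p below 0.05, against 30.3%. Without low-yield animal 4 it called 2, against 0.0984%. The non-unique sets accounted for a median of 12.2% of a member's sum of squares and 11.6% of another candidate's. Of the 56 members of set 1, 55 had a lower level in libraries with the higher non-unique share, and 18 had an unadjusted p below 0.05. All 28 members of set 2 and all 12 of set 4 had a higher level there, with 7 and 8 at an unadjusted p below 0.05, against 16% of genes tested. Members of a set were grouped because they vary together, so a shared direction within a set follows largely from the grouping. These counts are not counts of independent observations.

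The direction with yield changed between these library sets for most of the co-varying sets. Set 1 differed by -1.19, high minus low, in the 8 libraries with the higher non-unique share and by 0.67 in the 7 others. Set 3 differed by 1.16 and -0.82, set 6 by 0.41 and -1.22, and set 4 by 0.17 and -0.42. The last value leaned on high-yield animal 7 at -1.88. High-yield animals 3 and 6 were at -0.45 and 0.06, and the low-yield animals of those libraries at -0.80 to 0.09. Set 2 (0.76 and 0.35) and set 5 (0.91 and 0.62) had the same direction in both. In edgeR 97 members had an unadjusted p below 0.05 for yield in the former libraries, 46 higher and 51 lower, against 16.6% of all genes. There were 23 in the latter, 11 higher and 12 lower, against 2.07%. At an adjusted p below 0.05 edgeR called 0 members in either, with a smallest adjusted p of 0.0537 and 0.966. The difference between the library sets was not tested, and no label says what the non-unique share reflects.

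Genes that varied widely in 1 yield group also did so in the other. The 200 candidates with the largest SD in the 7 high-yield animals alone had a median SD of 0.72 in the 8 low-yield animals, against 0.30 over all candidates. The SD in low-yield animals was not used to pick them, but the candidates themselves were set by mean CPM over both groups. Of these, 188 lay above the upper quartile of candidates by SD there. The 200 picked in low-yield animals had a median SD of 0.77 in high-yield animals, against 0.28, and 189 lay above the upper quartile. The 2 lists shared 85 genes, 42.5% of each, and all 85 were members. Members were chosen by SD over both groups together, so a gene in both lists was likely to be a member by the rule itself.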

How the data were processed

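The authors deposited, for each animal, whole-number read counts by Ensembl gene identifier, with no normalization. TopHat2 2.1.1, SAMtools 1.4 and HTSeq with the bovine assembly UMD3.1 are named, per the submitters' processing notes. No HTSeq version, strand setting or annotation release is given in the sources used here. Without the strand setting, reads of antisense partners cannot be told apart, and genes with near-identical copies are uncertain because non-unique alignments went to no gene. The 5 tally entries per file, 23.5% to 29.5% of alignments, stayed out of totals and tests. Per the labels' protocols, blood was frozen, RNA extracted with Trizol and libraries made with the NEBNext Ultra kit.

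Members were chosen on CPM from library totals. All genes were tested with edgeR 4.0.16 in R 4.3.3 (quasi-likelihood F-test, TMM factors, filterByExpr with minimum count 10 and minimum total 15, Benjamini-Hochberg adjustment), on 15 libraries. DESeq2 1.42.0, limma 3.58.1 (voom), other scalings and filters, a replicate block and leaving out each library were alternatives. Exact permutation tests were two-sided, on log2(CPM + 1), with a smallest p of 0.0001554. On simulated counts of this comparison over 13264 genes, edgeR found 30% of the genes changed 1.5-fold, 58% of those changed 2-fold and 96% of those changed 8-fold (50 genes each). The changed genes were drawn at random from all genes tested, and counts were drawn without co-variation between genes. The median SE of the log2 fold change was 0.43 in the members and 0.19 in all genes. These rates therefore do not say what could be found among the members. Tests treat each labelled animal as 1 replicate. Named genes are the 2 members with the smallest p in each direction, as the rule set for files without gene names. Marker lists could not be scored. The members, lists, gap of 2 log2 units and 25% threshold were chosen with earlier results or values of these data known. Python 3.11.15, SciPy 1.17.1 and matplotlib 3.10.9 were used.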

Additional observations from a re-analysis of the deposited data

Results flagged for a closer look

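The gap between an extreme animal and the nearest other of its yield group was examined in 44 cases (component scores, co-varying sets, the 4 named members and the 10 most variable members), and 1 gap was wide for the range of its group, where about 5% are by chance. This was low-yield animal 2 for ENSBTAG00000008471, at 7.70 in log2(CPM + 1), against 5.01 to 6.24 in the other 7 low-yield animals.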

How the results depend on the processing

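The count of members called between yield groups was 0 in each of the alternative edgeR fits, in DESeq2 and in limma, with each library left out in turn, and within either set of libraries by non-unique share (added after seeing the data). The count at an unadjusted p below 0.05, 24 members in edgeR, was 40 with DESeq2, 110 with limma voom, 97 among libraries with the higher non-unique share and 10 with the exact test, which was added after seeing the data. Leaving out 1 library gave 15 to 47 members: 15 (against 1.94% of all genes) when high-yield animal 5 was left out, 39 (4.77%) for high-yield animal 3, 47 (8.91%) for high-yield animal 7 and 38 (7.68%) for low-yield animal 2. The replicate block gave 13 members (2.73%). Expression gave no sign that the numbers in the labels pair the animals (r of same-numbered animals -0.53 to 0.16, and 0 of 7 high-yield animals correlated best with their own number). Matched animals need not be alike in expression, so this cannot exclude a pairing. Between the non-unique sets, leaving out 1 library gave 30 to 86 members at an unadjusted p below 0.05, against 10.2% to 30.3% of all genes, and 0 to 30 called, against 0% to 6.42%. Of the 200 members, 79 were chosen again with all 16 libraries, 119 by median absolute deviation, 128 at a mean of at least 20 CPM, and 171 to 192 with 1 library left out. The first component's share was 42.8% with each gene scaled to SD 1, and 32.6% to 38.7% with 1 library left out. Other cuts, Spearman's rho and TMM scaling put 119 to 146 members into 3 to 5 sets. The named members kept their direction with all 16 libraries, library totals alone, the replicate block, DESeq2 and each library left out (adjusted p 0.487 to 1.0). Their values in the other alternatives are not given here. At the members' mean counts, counting error was small against their spread. It is larger in single libraries with few counts, such as the lowest library of rank 3, with 4 counts.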

Other observations

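High-yield animal 4, which took no part in the choice, had 112 of the 200 members within the range of the other 15 animals, 71 below it and 17 above it. Outside that range lay 44.0% of members and 66.5% of the other candidates, whose ranges were narrower. It had no count for 16 members, 12 of them in set 1, and its level of set 1 was -2.83, below the -1.27 to 1.31 of the other animals. Its level was -1.53 in set 2, and 0.14, 0.33, 0.17 and 1.11 in sets 3 to 6, within the range of the others.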
